A study of Mus musculus with 8 samples.

Results

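Enzymes and receptors of prostanoid and leukotriene signalling were followed in alveolar macrophages, the macrophages of the lung's air spaces. They were taken by gene symbol from a fixed list and all 10 were found among the 12367 genes of the deposited expression table: the receptors Ptgir and Ptger4, the prostanoid enzymes Ptgs1, Ptgs2, Ptges and Hpgds, and the leukotriene genes Alox5, Alox5ap, Lta4h and Ltc4s. Polyadenylated RNA was sequenced from cells sorted as CD45+ F4/80+ CD11c+ from the lungs of untreated mice at 3 weeks of age. The control group (WT) was Tfam-fl/fl without Cre, and the experimental group (KO) was CD11c-Cre Tfam-fl/fl, so that both groups carried the floxed Tfam allele. There were 4 libraries a group, each made from pooled cells of 3 to 5 mice of either or both sexes. The Cre was driven by CD11c, which is also a sort marker and is made by other CD11c+ cells than alveolar macrophages. Mice with the Cre but without floxed Tfam were not among the samples, so that an effect of the Cre and an effect of Tfam loss cannot be told apart.

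Prostanoids and leukotrienes are lipid mediators made from arachidonic acid, which phospholipases release from membranes. Cyclooxygenases (Ptgs1, Ptgs2) turn it into prostaglandin H2, from which terminal synthases make prostaglandin E2, prostaglandin D2, thromboxane and prostacyclin. In the other branch, 5-lipoxygenase (Alox5) and its activating protein make leukotriene A4, which is turned into the neutrophil attractant leukotriene B4 or into the cysteinyl leukotrienes that constrict airways. Alveolar macrophages are a known source of leukotriene B4 and thromboxane, and receptors for prostaglandin E2 and prostacyclin that raise cyclic AMP are known to restrain macrophages.

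The 8 libraries held an estimated 20243772 to 30263201 reads in the listed genes, worked out from the spacing of the values, and 3 reads were worth 0.100 to 0.152 on the authors' normalised per-million-reads scale, on which all levels below are given. Tfam, the mitochondrial transcription factor that was targeted, averaged 30.3 ± 3.72 over the WT libraries and 4.35 ± 0.648 over the KO libraries (SD, n = 4 each), a log2 change of -2.55. Of 20 alveolar macrophage markers all 20 were in the table, with a summed level of 41900 to 42880 in WT and 43230 to 48970 in KO. Chil3, which was not called, made up most of that sum, and without it the other 19 summed to 17136 to 20508 in WT and 16403 to 18740 in KO. Of the 20 markers 5 rose and 8 fell, against 18.7% and 20.0% of all genes tested. The sums did not show these changes of single markers. Among those that fell, mean Fabp1 went from 179.6 to 11.25, Ear1 from 845 to 123 and Siglecf from 501 to 194. Among those that rose, Itgax went from 1094 to 2050 and Car4 from 723 to 1336. Of 14 markers of interstitial macrophages and monocytes, 12 were in the table, 8 rose and 1 (Fn1) fell. In bulk RNA, fewer cells of a type and less RNA per cell cannot be told apart.

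Of the 10 genes, 3 rose in KO (Ptgir, Hpgds and Ptges), 3 fell (Alox5, Alox5ap and Lta4h) and 4 did not pass the test (Ptger4, Ptgs1, Ptgs2 and Ltc4s). The test was limma's moderated test on log2(value + 1), with Benjamini-Hochberg adjustment over all 12163 genes that passed a filter on low values and a threshold of 0.05; all 10 genes passed that filter. Fold changes on this scale understate the change of genes with low values. Of all genes tested, 38.7% were called, 18.7% as higher and 20.0% as lower. The 6 called genes of 10 are to be read against that background. As the 10 genes were chosen with earlier results of these data known, their count is not independent of the data. The WT and KO libraries did not overlap for 5 of the 10 genes (Ptgir, Alox5, Alox5ap, Lta4h and Ptges), and for 37.7% of all genes. The median log2 change was 0.04 over the 10 genes and -0.01 over all genes tested.

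**Figure D1:**
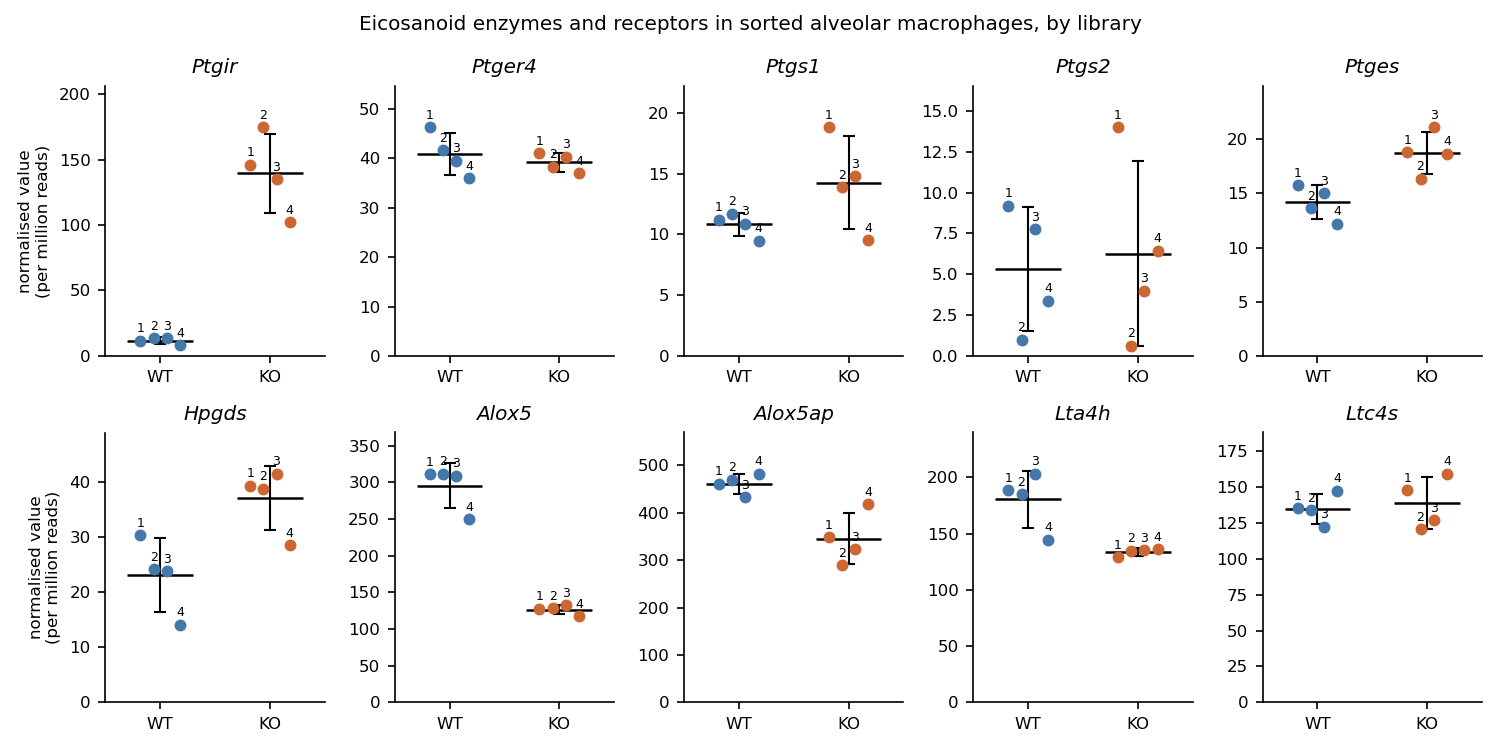
Normalised value of each of the 10 genes in each library, on a linear axis, with WT and KO libraries side by side. The KO libraries lie above all WT libraries for Ptgir and Ptges and below all of them for Alox5, Alox5ap and Lta4h. The Ptgs2 values of both groups spread most widely relative to their mean.

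The largest difference among the 10 genes was in Ptgir, the receptor for prostacyclin, which couples to cyclic AMP. The gene lies on chromosome 7 at 16906490 to 16910905, plus strand (GRCm38, ENSMUSG00000043017). Its level was 11.6, 13.5, 13.8 and 8.05 in WT replicates 1 to 4 and 146, 175, 135 and 102.0 in KO replicates 1 to 4. Every KO library was thus far above every WT library. The mean rose from 11.7 ± 2.65 to 139.5 ± 30.1 (SD, n = 4 each), an 11.9-fold ratio of means and a log2 change of 3.46 (SE 0.188, 95% interval 3.04 to 3.88, limma adjusted p = 1.9e-06). Only 5 of the 12163 tested genes had a higher log2 change. Between libraries with the same replicate number the log2 difference was 3.203 to 3.596, and replicate 4 had the lowest level in both genotypes.

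The bases just before the annotated start of Ptgir are shown because this gene had the largest change. They come from RefSeq (GRCm38.p6), chr7:16906240-16906489, plus strand, and the capitals mark matches to the GC box GGGCGG, bound by Sp1, and to the ETS core GAGGAA, which is part of sites of the macrophage factor PU.1.

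Ptgir: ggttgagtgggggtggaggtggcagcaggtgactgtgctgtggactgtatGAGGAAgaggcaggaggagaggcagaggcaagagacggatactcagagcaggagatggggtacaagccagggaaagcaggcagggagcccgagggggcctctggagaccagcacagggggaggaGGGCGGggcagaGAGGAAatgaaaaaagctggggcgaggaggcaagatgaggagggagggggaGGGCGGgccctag

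The GC boxes begin at -76 and -13 and the ETS cores at -200 and -64, counted from the annotated start. Promoters were found for 9 of the 10 genes, as windows of 250 bases before to 50 after the start, and both strands were searched. GGGCGG was present in 5 of the 9 (Ptgir, Ptger4, Ptges, Ptgs2 and Alox5), against 35.7% of 32851 RefSeq promoters. GAGGAA was present in 8 of the 9, all but Ptger4, against 28.3% of all promoters. TATAAA and the ATF4 element TGATGNAA were in 0 of the 9, against 13.6% and 3.97% of all promoters. These are matches of letters and not measured binding.

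Of the 12 measured markers of interstitial macrophages and monocytes 8 rose, as Ptgir did. Their summed level was 783.6 to 904.6 in WT and 312.7 to 648.5 in KO, but Fn1, which fell, made up most of it. Without Fn1, a choice made after its values were seen, the other 11 summed to 86.5, 56.6, 89.4 and 56.8 in WT and to 308, 129.9, 192 and 189 in KO. Among KO libraries the marker sum and Ptgir did not share an order: replicate 2 had the lowest sum, 129.9, and the highest Ptgir, 175. The part of these cells in the Ptgir result was not tested.

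**Figure D2:**
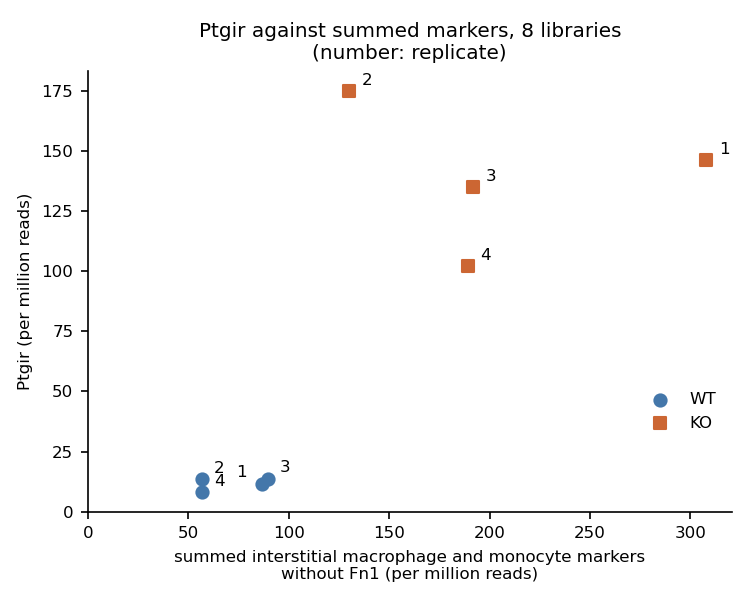
Ptgir level against the summed level of 11 interstitial macrophage and monocyte markers (without Fn1) in the 8 libraries, each point labelled by its replicate. All 4 KO libraries lie above the WT libraries on both axes, and KO replicate 2 has the lowest marker sum of the KO group with the highest Ptgir.

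The 5 genes whose log2 levels followed Ptgir most closely over the 8 libraries all rose in KO. They were Myo5a, an actin motor (Pearson r = 0.999), Sgsm2 (0.998), the ubiquitin ligase Rnf128 (0.998), Wfdc17 (0.998) and Tmem151a (0.998). Myo5a went from 45.45 ± 8.30 to 320.5 ± 50.6 and Wfdc17 from 14.3 ± 3.16 to 102 ± 20.3 (SD, n = 4 each). As 8 libraries in 2 groups carry these correlations, they mostly describe the difference between the genotypes.

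Prostaglandin E2 receptors differed among themselves. Ptger4, the EP4 receptor, which raises cyclic AMP as Ptgir does, lies on chromosome 15 at 5206661 to 5244187, minus strand. It was 46.3, 41.65, 39.6 and 36.0 in WT and 41.05, 38.3, 40.4 and 37.0 in KO. The ranges overlapped, and the log2 difference of -0.06 had a 95% interval of -0.23 to 0.12 (limma adjusted p = 0.624). Exons of Ptger4 overlap on the opposite strand with Ttc33, which rose from 34.7 to 45.4 (limma adjusted p = 0.00269), and whether the counting used strand is not given in the sources used here. Ptger2, the EP2 receptor, which also raises cyclic AMP, was 35.4, 42.2, 35.2 and 39.3 in WT and 29.6, 27.2, 29.65 and 28.8 in KO. It fell by 0.39 on the log2 scale (SE 0.0725, limma adjusted p = 0.00234), with no overlap between the groups. Ptger1, the calcium-coupled EP1 receptor, averaged 4.75 ± 3.45 over WT and 5.54 ± 1.004 over KO libraries (SD, n = 4 each), a log2 difference of 0.38 with an interval of -0.48 to 1.23. The other 5 prostanoid receptors listed were not analysed here.

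The constitutive cyclooxygenase Ptgs1 (chromosome 2, 36230426 to 36252272, plus strand) did not pass the test in the unpaired fit. Its level was 11.2, 11.7, 10.9 and 9.48 in WT and 18.8, 13.9, 14.8 and 9.54 in KO. KO replicates 1 to 3 lay above all WT libraries and KO replicate 4 lay among them. The log2 difference was 0.34 (SE 0.169, interval -0.04 to 0.72, limma adjusted p = 0.146), and the KO value was higher within each of the 4 same-numbered pairs, by 0.01 to 0.70. With the replicate number as a block the limma adjusted p was 0.039, and without KO replicate 4 it was 0.00992, with a log2 difference of 0.50; over all 19 alternatives it ranged from 0.00992 to 0.343. Exons of Ptgs1 overlap with Gm43621 on the opposite strand, and the strand setting is not known. Ptgs1 is abundant in platelets. Of 7 platelet markers 0 were in the table, so that their levels are not known here. The part of platelets in the Ptgs1 values was not tested.

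Ptgs2, the inducible cyclooxygenase (chromosome 1, 150100031 to 150108227, plus strand), varied more within the groups than between them. It was 9.21, 1.01, 7.75 and 3.38 in WT and 14.01, 0.629, 3.99 and 6.46 in KO. Replicate 2 was the lowest library in both genotypes, and the ranges overlapped over most of their length. The log2 difference was 0.05 (SE 0.685, interval -1.48 to 1.59, limma adjusted p = 0.961), so that a several-fold change in either direction lay within the interval. The stretch shown lies at positions 4 to 32 after the annotated start (RefSeq, GRCm38.p6, chr1:150100034-150100062, plus strand), and is given because Ptgs2 was the only one of the 9 promoters with either motif in capitals. These are the E-box CACGTG, in 7.15% of all promoters, and, read on the other strand and overlapping it, the cyclic AMP response core TGACGT, in 7.51%.

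Ptgs2: gtcaccactACGTCACGTGgagtccgctt

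Ptgs2 is known as an immediate early gene, one that is switched on within minutes of a stimulus. A list of 13 other immediate early genes, drawn up after the Ptgs2 values were seen, showed the same low library: 13 of 13 were lowest in replicate 2 of both genotypes. The same held for 6 of 9 endothelial and fibroblast, 5 of 12 interstitial macrophage and monocyte and 0 of 20 alveolar macrophage markers. It also held for 3 of 9 alveolar epithelial, 2 of 9 dendritic cell and 0 of 7 neutrophil markers. The share of all genes with this pattern was not worked out, so that 13 of 13 has no background here. The cause of the low replicate 2 values was not tested. Fos, a subunit of the AP-1 factor, was 1329, 607, 1481 and 1781 in WT and 1170.0, 265, 876.5 and 1072 in KO. Egr1, a zinc finger factor, was 94.3, 13.8, 98.1 and 83.1 in WT and 124, 10.7, 46.1 and 63.8 in KO. Between genotypes 0 of the 13 were called by limma in the unpaired fit, and 1 had an unadjusted p under 0.05. With the replicate number as a block 9 were called lower and 2 higher, each in the same direction in 4 of 4 same-numbered pairs. Fos was among the lower genes, with a log2 change of -0.72 (limma adjusted p = 0.00232 with the block), and Ier3 and Atf3 were the higher ones. These counts are to be read against the block fit of all 12163 genes, in which 2730 were called higher and 2952 lower. Ptgs2 was higher in KO in 2 of the 4 pairs and lower in the other two, and was not called with the block. Without both replicate 2 libraries the Ptgs2 log2 difference was 0.17 (limma adjusted p = 0.819).

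**Figure D3:**
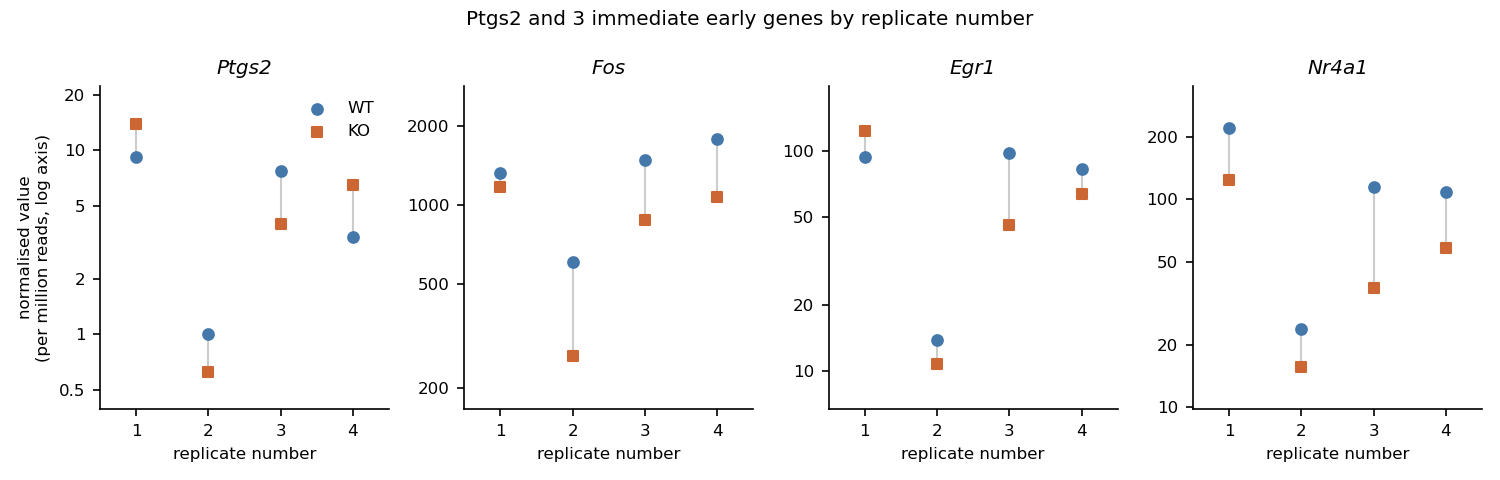
Normalised value of Ptgs2, Fos, Egr1 and the nuclear receptor Nr4a1 by replicate number, 1 panel a gene with log axes, circles for WT and squares for KO libraries, joined by a line within a replicate number. Replicate 2 is the lowest point of both genotypes in each panel, at 1.01 in WT and 0.629 in KO for Ptgs2.

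Of the terminal prostanoid synthases among the 10 genes, both rose. Ptges, the inducible microsomal prostaglandin E synthase (chromosome 2, 30889471 to 30929863, minus strand), was 15.8, 13.65, 15.03 and 12.2 in WT and 18.8, 16.4, 21.1 and 18.7 in KO. Every KO library exceeded every WT library, and the log2 change was 0.38 (SE 0.101, interval 0.16 to 0.61, limma adjusted p = 0.0141). Hpgds, the haematopoietic prostaglandin D synthase (chromosome 6, 65117293 to 65144908, minus strand), was 30.4, 24.2, 23.9 and 14.1 in WT and 39.4, 38.8, 41.5 and 28.5 in KO. KO replicate 4 lay below WT replicate 1, so that the groups overlapped, yet KO was higher in 4 of 4 same-numbered pairs. The mean rose from 23.1 ± 6.71 to 37.05 ± 5.81 (SD, n = 4 each), a log2 change of 0.69 (SE 0.206, interval 0.23 to 1.15, limma adjusted p = 0.0245).

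The Hpgds call depended on single libraries. It was lost without KO replicate 1, 2 or 3 (limma adjusted p = 0.0624, 0.0594 and 0.0672) and without both replicate 2 libraries (0.0908, the highest of 19 alternatives, of which the lowest was 0.000459). The log2 change stayed between 0.48 and 0.83. Hpgds is also made by mast cells. Of 12 mast cell and basophil markers 2 were in the table, Kit and Gata2; their summed level was 3.77 to 12.5 in WT and 5.00 to 7.01 in KO, and neither was called by limma or had an unadjusted p under 0.05. The other 10 markers were not analysed here.

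Among 9 other measured prostanoid synthesis genes, 3 rose and 1 fell. Prxl2b, a prostaglandin F synthase, rose from 1.14 ± 0.349 to 3.94 ± 0.592 (SD, n = 4 each; log2 change 1.21), and the aldo-keto reductase Akr1b8 from 1.42 to 4.91 (1.31). Cbr1, which reduces prostaglandin E2 to prostaglandin F2 alpha, rose by less, from 20.6 to 24.5, and was not called without WT replicate 3 (limma adjusted p = 0.0554), without both replicate 4 libraries (0.0516) or without both replicate 2 libraries (0.064). Akr1b3, a reductase with prostaglandin F synthase activity, fell from 253 to 192 (log2 change -0.40). Tbxas1, thromboxane synthase, named after its values were seen, was 154 ± 12.7 in WT and 156.5 ± 8.48 in KO, and the interval of its log2 difference was -0.13 to 0.18.

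In the leukotriene branch 3 of the 4 genes fell. Alox5, 5-lipoxygenase, the first enzyme of the branch, lies on chromosome 6 at 116410077 to 116461178, minus strand (ENSMUSG00000025701). It was 312, 312, 309 and 249.8 in WT and 128, 128, 132 and 117 in KO. The lowest WT library was still far above the highest KO library. The mean fell from 296 ± 30.6 to 126.5 ± 6.41 (SD, n = 4 each), so that WT was 2.34-fold above KO, and the log2 change was -1.21 (SE 0.0789, interval -1.39 to -1.04, limma adjusted p = 4.87e-06). The 250 bases before its start (RefSeq, GRCm38.p6, chr6:116461179-116461428, minus strand) are shown for comparison with Ptgir, since the gene moved the other way and carries the same motifs, with 1 GC box at -35 and 1 ETS core at -136 in capitals.

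Alox5: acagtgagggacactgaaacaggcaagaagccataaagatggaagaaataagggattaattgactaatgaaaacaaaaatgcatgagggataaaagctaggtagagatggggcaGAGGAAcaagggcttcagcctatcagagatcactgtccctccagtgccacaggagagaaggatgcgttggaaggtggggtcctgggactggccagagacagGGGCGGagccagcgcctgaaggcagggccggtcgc

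Alox5ap, the membrane protein that presents arachidonic acid to 5-lipoxygenase (chromosome 5, 149264767 to 149288153, plus strand), was 461, 469.5, 432 and 482 in WT and 349, 289.8, 323 and 417 in KO. The log2 change was -0.43 (SE 0.0990, interval -0.65 to -0.21, limma adjusted p = 0.00705), and the highest KO library, 417, was below the lowest WT library, 432. Exons of Alox5ap overlap on the opposite strand with Gm19719, which was not analysed here. Lta4h, the hydrolase that makes leukotriene B4 (chromosome 10, 93453411 to 93484875, plus strand), was 189, 185, 203 and 145 in WT and 129, 135, 135.5 and 136 in KO. It fell by 0.42 on the log2 scale (SE 0.0936, interval -0.63 to -0.21, limma adjusted p = 0.00621). The groups did not overlap, but within the replicate 4 pair the difference was only -0.09, against -0.45 to -0.58 in the other 3 pairs. Ltc4s, the synthase that joins leukotriene A4 to glutathione (chromosome 11, 50236461 to 50238616, minus strand), was 135, 134, 122 and 147 in WT and 148, 121, 127 and 159 in KO. Its ranges overlapped, and the log2 difference of 0.04 had an interval of -0.17 to 0.25 (limma adjusted p = 0.801). Its exons overlap on the opposite strand with Gm26542, which averaged 3.53 in WT and 2.92 in KO and was not called.

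**Figure D4:**
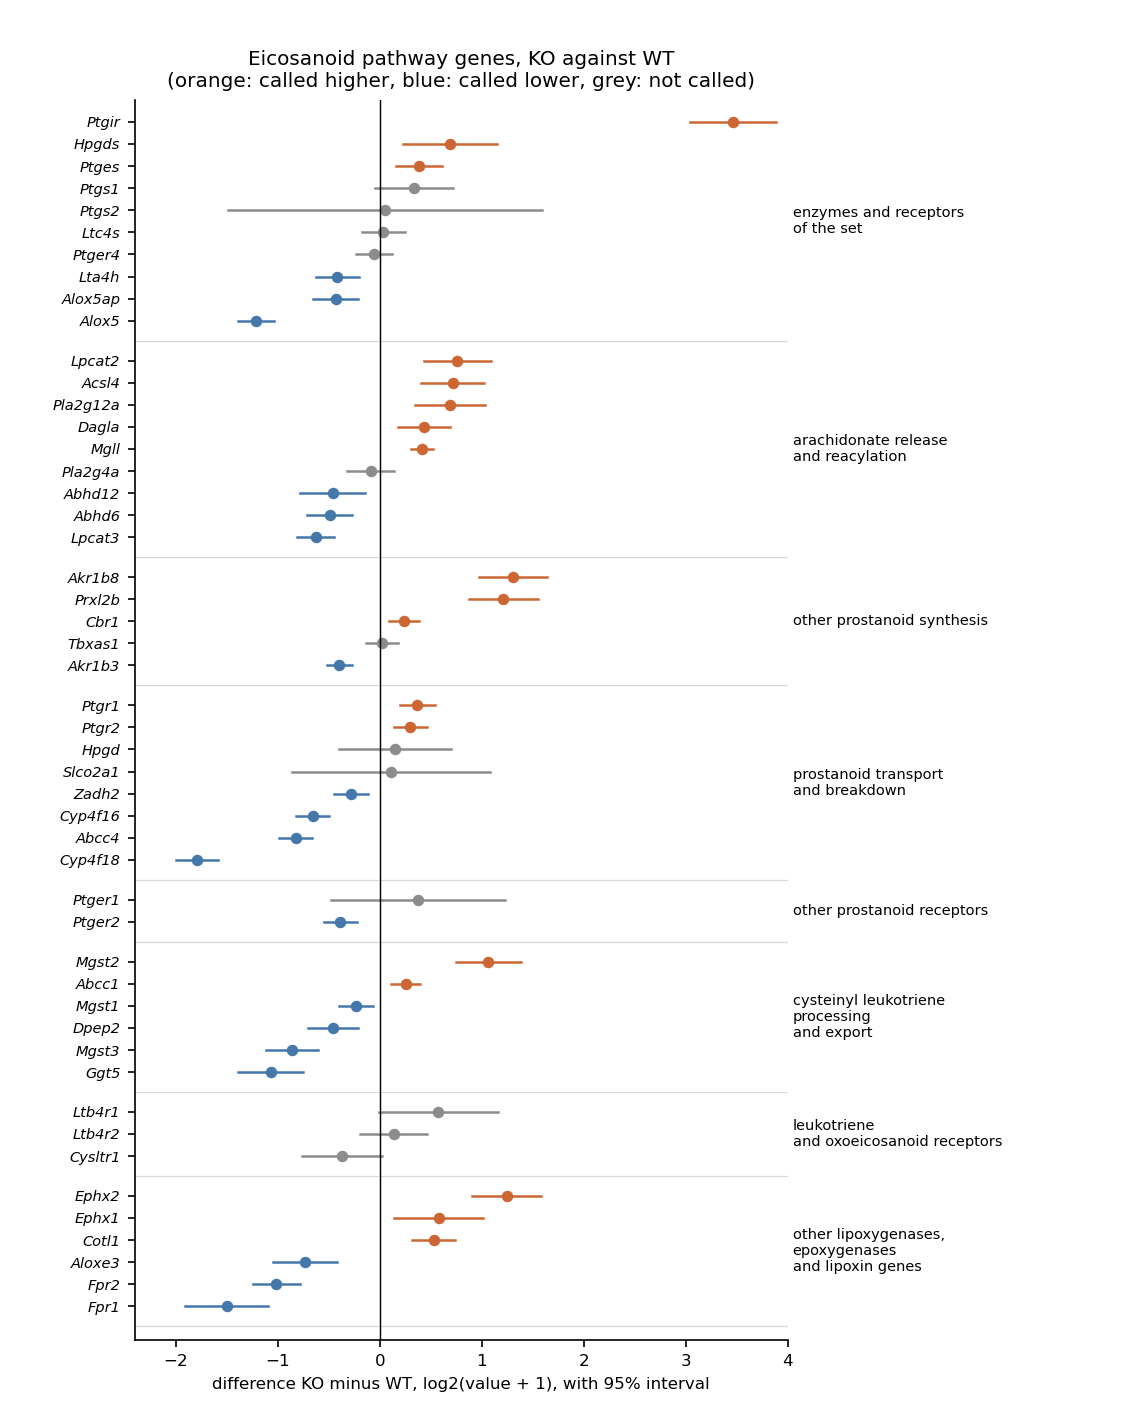
Log2 change, KO against WT, on the log2(value + 1) scale with 95% intervals for the 10 genes and the other named pathway genes. Ptgir stands at 3.46 and Alox5 at -1.21, and Cyp4f18 is the lowest at -1.79.

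The genes that process or export cysteinyl leukotrienes did not move together: of 7 tested, 2 rose, 4 fell and 1 was not called. Mgst2, which can make leukotriene C4 in place of Ltc4s, rose from 6.78 ± 1.197 to 15.3 ± 2.49 (SD, n = 4 each; log2 change 1.07, limma adjusted p = 0.000297), and Abcc1, which exports leukotriene C4, from 39.6 to 47.4. Mgst3, of the same enzyme family, fell from 43.4 to 23.3. Ggt5, which turns leukotriene C4 into leukotriene D4, fell from 8.52 ± 1.45 to 3.52 ± 0.596 (log2 change -1.07, limma adjusted p = 0.000282). Dpep2, the dipeptidase that makes leukotriene E4, fell from 139.9 to 102, and Mgst1 from 258 to 219.8. The Mgst1 call was lost without WT replicate 1, 2 or 4 or KO replicate 1, 2 or 3, and also under median centring (limma adjusted p = 0.0523), with no variance trend (0.0577) and without both replicate 2 libraries (0.166, the highest of its alternatives). Without both replicate 2 libraries the Dpep2 and Abcc1 calls were lost too (0.0681 and 0.064). The leukotriene receptors in the table were all low; limma called 0 of the 3, and 0 had an unadjusted p under 0.05. Ltb4r1, the high-affinity leukotriene B4 receptor, was 1.598, 1.74, 1.47 and 1.32 in WT and 5.39, 1.34, 2.82 and 2.50 in KO (limma adjusted p = 0.11), and without KO replicate 2 it was called (0.0198, in a range of 0.0198 to 0.233 over the alternatives). Ltb4r2 was 1.09 ± 0.189 in WT and 1.303 ± 0.289 in KO. Cysltr1, a cysteinyl leukotriene receptor, was 8.84 ± 1.45 in WT and 6.74 ± 2.00 in KO, with a limma adjusted p of 0.124, of 0.0184 with the replicate number as a block and of 0.0149 without KO replicate 1, in a range of 0.0149 to 0.323.

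Genes that break down or move these mediators held the lowest log2 change among the named pathway genes. Cyp4f18, which oxidises leukotriene B4, was 86.0, 81.6, 79.1 and 79.25 in WT and 24.3, 20.5, 20.15 and 27.1 in KO. WT was 3.54-fold above KO with no overlap, and the log2 change was -1.79 (SE 0.0926, limma adjusted p = 1.49e-06). Its relative Cyp4f16 fell from 121 to 76.35, and Abcc4, which exports prostaglandin E2, from 24.4 ± 1.67 to 13.35 ± 0.654 (log2 change -0.82). The prostaglandin reductases differed in direction: Ptgr1, which also inactivates leukotriene B4, rose from 24.8 to 32.3 and Ptgr2 from 50.9 to 62.9, while Zadh2 fell from 47.3 to 38.8. The Ptgr2 and Zadh2 calls were lost without both replicate 2 libraries (limma adjusted p = 0.0588 and 0.0924). Of the 9 genes tested here 2 rose, 4 fell and 3 were not called. Hpgd, which inactivates prostaglandin E2, and Slco2a1, which imports it, both named after their values were seen, were not called and were highest in WT replicate 3, at 24.4 and 22.4. The 9 measured endothelial and fibroblast markers summed to 256.7 in that library, against 102.2 to 138.4 in the other WT libraries and 277.9 to 389 in KO, where Vwf alone was 221 to 319. Without Vwf, a choice made after its values were seen, the other 8 markers summed to 129 in that library. They summed to 27.5 to 35.9 in the other WT libraries and to 40.2 to 78.0 in KO. Other lists were also highest of the WT libraries in replicate 3. Alveolar epithelial markers summed to 192.3 there, against 90.1 to 97.2 in the other WT libraries and 96.7 to 177.3 in KO. Mast cell and basophil markers summed to 12.5, against 3.77 to 5.01 and 5.00 to 7.01. Dendritic cell markers were not highest there, at 27.3 against 21.3 to 28.1 in the other WT libraries. The part of any of these cells in the Hpgd and Slco2a1 values was not tested.

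Upstream, 15 genes of arachidonate release and reacylation were tested, of which 6 rose and 3 fell. Mgll, the lipase that frees arachidonic acid from 2-arachidonoylglycerol, rose from 256 ± 8.51 to 342 ± 11.5 (SD, n = 4 each; log2 change 0.42, limma adjusted p = 0.000107). Acsl4, which activates arachidonic acid for storage, rose from 82.7 to 138, Lpcat2 from 9.29 to 16.3, the secreted phospholipase Pla2g12a from 5.90 to 10.2 and the lipase Dagla from 10.7 to 14.7. Lpcat3, which puts arachidonic acid back into phospholipids, fell from 113 ± 11.6 to 72.5 ± 4.54 (log2 change -0.63, limma adjusted p = 0.00025). The lipases Abhd6 and Abhd12 fell from 5.69 to 3.77 and from 672 to 482. The Abhd12 call was lost without WT replicate 1, 2 or 3 or KO replicate 2 or 4, and without both replicate 2 libraries, where the limma adjusted p was highest at 0.134; the Dagla call was lost in that last setting alone (0.101). Pla2g4a, the cytosolic phospholipase that releases arachidonic acid, named after its values were seen, averaged 69.8 ± 4.96 over WT and 66.0 ± 9.90 over KO libraries, with an interval of the log2 difference of -0.32 to 0.15.

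Of 7 tested genes of other lipoxygenases, epoxide hydrolases and lipoxin receptors, 3 rose and 3 fell. Fpr2, a receptor of lipoxin A4 and of formyl peptides, fell from 318 ± 6.65 to 158 ± 27.1 (SD, n = 4 each; log2 change -1.01, limma adjusted p = 6.23e-05), and its relative Fpr1 from 336.5 to 123. The lipoxygenase family member Aloxe3 fell from 11.3 to 6.40. Cotl1, whose protein binds 5-lipoxygenase, rose from 782 to 1129, and the epoxide hydrolases Ephx2 and Ephx1 rose from 0.627 to 2.85 and from 5.49 to 8.74. The Ephx1 call was lost without WT replicate 1, 2 or 4 or KO replicate 1 or 3, without both libraries of replicate 2 or of replicate 4 and with voom weights, with a limma adjusted p of 0.0505 to 0.111 in these settings. Over the 7 lists together 52 genes were tested, 16 rose and 16 fell, with a median log2 change of 0.11. These counts, and those of each list, are to be read against all genes tested, of which 18.7% were called higher and 20.0% lower. The lists too were chosen with earlier results of these data known.

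Divided by exon length, the order of the 10 genes differed between the genotypes. The length was that of all annotated exons of a gene joined together, not of the transcripts made in these cells. The order between genes, and the overlap of neighbours, depend on that choice. In WT, per kilobase, Alox5ap was the highest at 325 ± 14.9, followed by Ltc4s at 133 ± 10.1, Alox5 at 72.0 ± 7.46, Lta4h at 29.6 ± 4.12 and Ptger4 at 6.15 ± 0.647 (SD, n = 4 each), with no overlap between neighbours. Ptges, Hpgds, Ptgir and Ptgs1 followed at 3.60, 3.60, 3.52 and 2.79, each overlapping the next, and Ptgs2 was the lowest at 1.17. In KO, Ptgir came next after Alox5ap and Ltc4s at 41.8 ± 9.03 per kilobase, with a range of 30.6 to 52.4 that overlapped Alox5 at 30.8 ± 1.56. The means of Alox5ap and Ltc4s were 243 and 137, and the genes from Ptger4 at 5.90 down to Ptgs2 at 1.37 overlapped with their neighbours.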

How the data were processed

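The deposited table gives 1 signal value per gene and library, normalised by the authors on a per-million-reads scale. Its values are odd multiples of the smallest in each column at a tolerance of 0.01, from which the read totals were estimated. Per the submitters' processing notes, the tools included RSEM 1.3.1, cutadapt 1.7.1, CASAVA 1.8.2 and limma, on GRCm38. For the annotation release and strand setting, nothing is given in the sources used here. Groups and replicate numbers came from the sample titles. A gene entered the test if 4 or more libraries reached a value of 1. The test used log2(value + 1) in limma 3.58.1 (R 4.3.3; mean-variance trend, two-sided, no covariates) and was checked on simulated data. The simulated data held far fewer changed genes than were called here and no effect of the replicate number, so that the check does not cover these. 13 rows without a symbol were kept by ID. Gene positions and lengths were taken from the GENCODE M21 annotation.

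Same-numbered WT and KO libraries deviated together from their group means (r = 0.286 to 0.431, against -0.374 to 0.0917 for other pairs), so that the number was also fitted as a block. Deviations cancel out within a group, so that these ranges of r are not independent of each other. The labels do not say what the number marks. The 10 genes and the lists were chosen with earlier results of these data known. Named genes were Tfam, the 10 genes, up to 8 called genes of each of the 7 other lists by p, all receptors in the table and the 5 closest correlates of Ptgir. Lists of 10 cell types served as markers. Of the dendritic cell markers 1 of 9 measured rose. Of 6 neutrophil markers tested 1 rose and 3 fell. Limma called 0 of 9 alveolar epithelial markers (1 at an unadjusted p under 0.05), of 9 endothelial and fibroblast markers 1 (Vwf) rose, of 9 lymphocyte markers 1 was measured and not called, and 0 of 5 eosinophil markers were in the table.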

Additional observations from a re-analysis of the deposited data

Results flagged for a closer look

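Among 110 sets of 4 libraries, 2 for each of 55 named genes, 4 held a library far from the other 3; chance gives about 1 in 20, and no cause was tested. Alox5 in WT was lowest in replicate 4, at 249.8 against 309 to 312 in the others, a gap of 0.956 of the range. Lta4h in KO was lowest in replicate 1, at 128.8 against 134.9 to 136 (0.843). Abcc1 in KO was lowest in replicate 1, at 44.6 against 48.1 to 48.5 (0.895). Cotl1 in WT was lowest in replicate 4, at 668.9 against 816.6 to 821.3 (0.969).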

How the results depend on the processing

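For the named genes, 1034 values were recomputed over 19 alternatives: 975 kept their direction and their side of the threshold, 35 lost the call, 7 gained it and 17 changed sign. For the 10 genes the counts were 172, 4, 3 and 10 of 189. The count of the 10 that fell stayed at 3 in every alternative, and the count that rose was 2 to 4. It was 4 under the replicate block, without KO replicate 4 and without both replicate 4 libraries, each time with Ptgs1 added. Under the replicate block 2730 of all genes were called higher and 2952 lower. Leaving out libraries, the number of all genes called lower was 1608 (both replicate 2 libraries) to 2571 and called higher 1635 to 2404. The log2 change of Ptgir was 3.31 to 3.60 and of Alox5 -1.29 to -1.18 without single libraries or pairs. Values that changed sign belonged to genes that were not called. Ptgs2 was -0.0068 under quantile normalisation and -0.19 with voom weights, and -0.43 to 0.64 when libraries were left out. In the same way Ptger4 was -0.11 to 0.0052, Ltc4s -0.034 to 0.098, Ptger1 -0.0053 to 0.74, Tbxas1 -0.028 to 0.060, Hpgd -0.018 to 0.40 and Slco2a1 -0.19 to 0.57. Ptgs2 was not tested at a minimum value of 8. Voom weights and leaving out both replicate 2 libraries were chosen after seeing the data. Tests of read counts with edgeR were planned for the case that whole reads could be recovered and were not run, since a check of the recovered reads against the table did not accept them; the read totals and the voom weights rest on the same estimate. The cause of these changes was not tested. Each library is a pool, so that the spread between mice is not measured.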
